A study of Mus musculus with 12 samples.

Results

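Axon guidance genes encode the secreted and membrane-bound cues that steer growing axons and the receptors that read them. Ephrins are membrane-anchored ligands of the Eph receptor tyrosine kinases, semaphorins act through plexins, neuropilins or integrins, and some Robo receptors answer Slit proteins at the midline. In the adult brain several of them remain at synapses or in myelinating cells, and EphB2 is known for binding and clustering NMDA receptors at hippocampal synapses. The 7 genes described here are the EphB receptors Ephb2 and Ephb3, the ephrin Efna5, the semaphorins Sema3d and Sema7a, the plexin Plxnb3 and the roundabout receptor Robo3. They were taken by name from the deposited hippocampus and cortex gene tables of a BK KO study, which together list 1017 genes. All 7 are among the 652 genes of the hippocampus table, and 2 of them, Plxnb3 and Robo3, are also among the 561 genes of the cortex table.

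Hippocampus and cortex came from 3 BK KO (kcnma1-/-) and 3 WT (wild type) adult C57BL/6 mice, which gave 12 poly-A libraries. The knockout is constitutive, made by a frameshift deletion in Kcnma1, the gene of the pore-forming subunit of the calcium- and voltage-activated BK potassium channel, and the mice came from heterozygous breeding pairs. Each table holds only genes that the authors had called between BK KO and WT in that tissue, so a guidance gene is present because it already differed in these same libraries. The values per library were taken as FPKM, fragments per kilobase of transcript and scaled to the fragments of the library. Fold changes are given on log2(FPKM + 1), which understates the change of genes with low FPKM, and a gene was counted as past the threshold at an unadjusted limma p under 0.05 with a log2 fold change beyond 0.58. Because of the selection, these p-values and counts describe the listed genes and do not test them anew. In whole tissue, fewer cells of a type and less RNA per cell cannot be told apart. Kcnma1 itself gave 11.3, 10.6 and 9.67 FPKM in the WT hippocampus libraries against 2.54, 2.82 and 2.81 FPKM for BK KO, and 11.98, 9.82 and 11.8 FPKM in the WT cortex libraries against 3.09, 2.97 and 2.76 FPKM for BK KO. It stood at 25.8% of its WT mean in BK KO hippocampus and at 26.2% in cortex, with no overlap between the genotypes.

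To place the genes, the 250 bases before each start site were read from the RefSeq promoter table (GRCm38.p6, which is not the build mm9 of the submitters' processing notes), and all 7 genes matched. Of these, 3 are printed here: Ephb3 and Robo3, which were lower in BK KO hippocampus, and Sema3d, which was the only gene of the 7 with a higher level. The Ephb3 window is chr16:21204545-21204794 on the plus strand, the Robo3 window chr9:37433176-37433425 on the minus strand and the Sema3d window chr5:12382916-12383165 on the plus strand. Each is written 5′ to 3′ on the strand of its gene and ends at the base before the start site. Capitals mark GC boxes (GGGCGG) and cyclic AMP response element cores (TGACG), each on either strand.
Ephb3: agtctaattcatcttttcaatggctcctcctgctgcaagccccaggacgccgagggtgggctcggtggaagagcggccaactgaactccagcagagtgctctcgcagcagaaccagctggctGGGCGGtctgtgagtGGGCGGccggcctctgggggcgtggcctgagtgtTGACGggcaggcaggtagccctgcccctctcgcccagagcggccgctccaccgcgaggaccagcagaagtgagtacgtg
Robo3: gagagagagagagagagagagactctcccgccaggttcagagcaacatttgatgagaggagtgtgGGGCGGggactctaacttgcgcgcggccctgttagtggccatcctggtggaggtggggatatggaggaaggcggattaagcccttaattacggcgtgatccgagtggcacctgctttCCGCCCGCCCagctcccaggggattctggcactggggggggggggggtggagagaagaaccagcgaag
Sema3d: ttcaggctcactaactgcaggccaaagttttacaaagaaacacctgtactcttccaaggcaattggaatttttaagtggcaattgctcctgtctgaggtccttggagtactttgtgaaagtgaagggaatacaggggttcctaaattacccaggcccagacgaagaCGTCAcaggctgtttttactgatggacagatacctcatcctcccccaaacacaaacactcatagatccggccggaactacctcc

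The Sema3d window was the poorest in G and C of the 7, at 46.8% with 4 CpG dinucleotides. The windows of the other genes ranged from 61.2% in Robo3 to 74.8% in Efna5, and the median over all 32851 windows of the table was 52.4%. The fewest CpG dinucleotides, 3, were in the window of Plxnb3, at 65.2% G and C. A GC box was found in 4 of the 7 windows, those of Ephb3, Efna5, Sema7a and Robo3, against 32.7% of all windows, and in Robo3 2 of its 3 boxes overlap. A TGACG core was found in the windows of Ephb3 and Sema3d, against 17.8% of all windows, and the full palindrome TGACGTCA in 0 of the 7, against 1.55%. The EGR motif GCGNGGGCG was in the window of Efna5 alone, against 4.70% of all windows. These matches describe letters only. In the GENCODE M21 annotation no exon of the 7 genes overlapped an exon of another gene.

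In WT hippocampus the 7 genes spanned a wide range of FPKM, a scale that is per transcript length and can be compared between genes. Sema7a was far above the others, followed by Ephb3, Efna5, Plxnb3, Robo3, Ephb2 and Sema3d. Of the neighbours in this order, Efna5 and Plxnb3 overlapped over the 3 WT libraries, and so did Plxnb3 and Robo3. In BK KO hippocampus the first 4 places were the same, while Sema3d now stood next to Robo3, with overlapping values, and Ephb2 was last. The plot of every hippocampus library shows these levels.

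**Figure D1:**
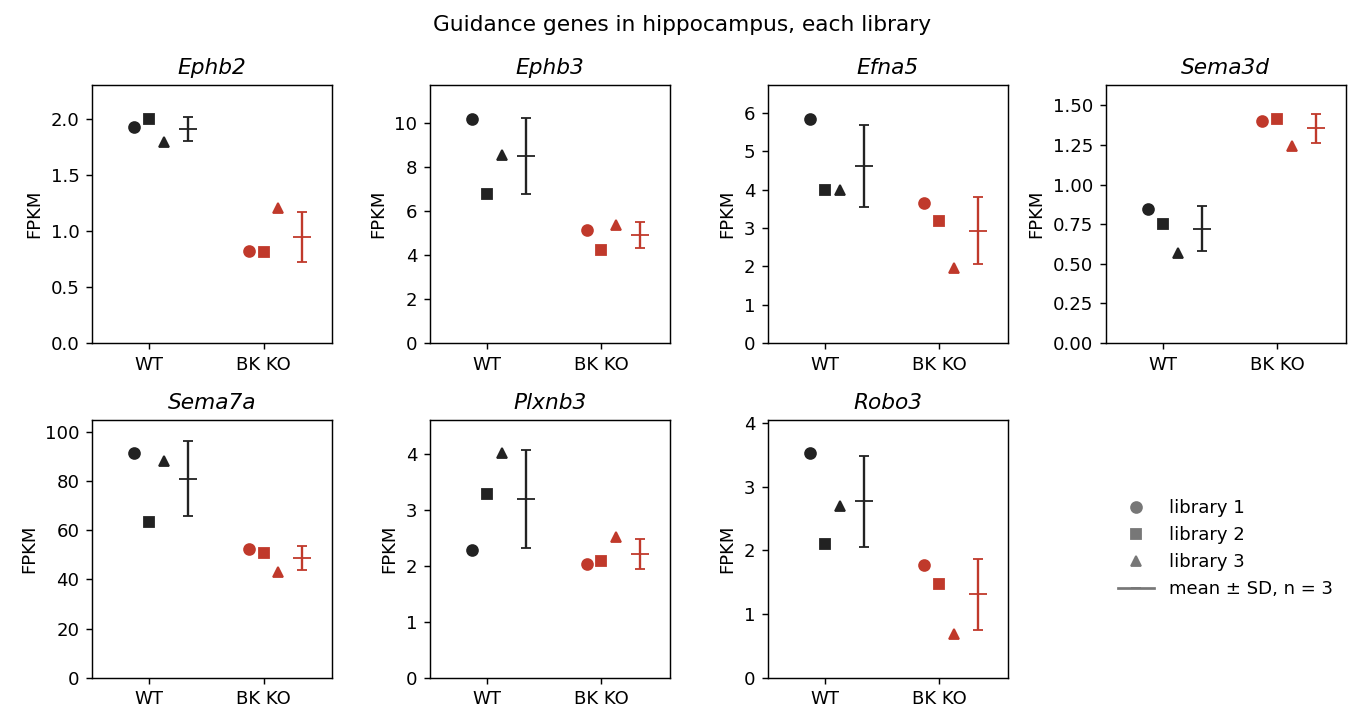
FPKM of the 7 guidance genes in each hippocampus library, WT in black and BK KO in red, on axes that start at 0. Symbols give the library number, and bars the mean ± SD over 3 libraries. The BK KO libraries lie below all WT libraries in 5 genes and above them in Sema3d, while the groups overlap in Plxnb3.

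The EphB receptors were both lower in BK KO hippocampus. Ephb2, the receptor that clusters NMDA receptors, gave 1.93, 2.00 and 1.79 FPKM in WT libraries 1 to 3, against 0.824, 0.812 and 1.20 FPKM in those of BK KO. The WT libraries were close together, the groups did not overlap, and BK KO library 3 was nearest to WT. Ephb2 fell to 49.6% of its WT mean, from 1.91 ± 0.108 (SD, n = 3) to 0.946 ± 0.223 FPKM (SD, n = 3). Its log2 fold change was -0.59 (standard error 0.12), with a limma p of 0.00164 and a Benjamini-Hochberg adjusted p of 0.0156 over all 652 listed genes. This value lies at the edge of the 0.58 limit, and with each library left out it ranged from -0.68 to -0.54 and was past the threshold in 2 of 6 fits, those without WT library 3 or BK KO library 3. The added 1 FPKM is large beside these levels, and a pseudocount of 0.1 gave -0.96, past the threshold.

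Ephb3, a receptor of B-class ephrins that takes part in the formation of the corpus callosum, gave 10.2, 6.77 and 8.55 FPKM in libraries 1 to 3 of WT, against 5.12, 4.22 and 5.35 FPKM in those of BK KO. The WT spread was wider than that of Ephb2, yet the lowest WT library stayed above the highest BK KO library. Ephb3 fell from 8.51 ± 1.72 (SD, n = 3) to 4.90 ± 0.596 FPKM (SD, n = 3), giving a log2 fold change of -0.68 (standard error 0.16, limma adjusted p = 0.0187). Without WT library 1, its highest library, the log2 fold change was -0.55 and no longer past the threshold. The authors' base means, read counts divided by size factors, averaged 470 and 238 for Ephb2 in WT and BK KO mice and 669 and 397 for Ephb3.

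Efna5 encodes a glycolipid-anchored ephrin that binds EphA receptors and can also bind EphB2. It gave 5.86, 3.99 and 3.99 FPKM in libraries 1 to 3 of WT, against 3.65, 3.18 and 1.97 FPKM in those of BK KO. The groups did not overlap, but WT library 1 and BK KO library 3 stood apart from their groups in opposite directions. The log2 fold change was -0.52 (standard error 0.21), with a limma p of 0.0417 and an adjusted p of 0.0542, and was not past the threshold. It was -0.37 without WT library 1 and -0.33 without BK KO library 3. Without WT library 3 or BK KO library 1 it was -0.60 and -0.66, and then past the threshold.

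Of the semaphorins, Sema7a was lower and Sema3d higher in BK KO hippocampus. Sema7a is a membrane-anchored semaphorin that signals through integrin beta-1 and plexin C1. It gave 91.3, 63.5 and 88.4 FPKM in libraries 1 to 3 of WT, against 52.4, 50.9 and 43.1 FPKM in those of BK KO. WT library 2 was well below the other WT libraries and still above every BK KO library. Sema7a fell from 81.1 ± 15.3 (SD, n = 3) to 48.8 ± 4.96 FPKM (SD, n = 3), which is 60.2% of its WT mean. Its log2 fold change was -0.71 (standard error 0.17), with a limma p of 0.00416 and an adjusted p of 0.0187, and Sema7a was past the threshold with any 1 library left out. With base means of 5494 in WT and 3398 in BK KO mice it was also the most deeply read of the 7 genes.

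Sema3d, a secreted semaphorin that acts through neuropilins, gave 0.847, 0.748 and 0.568 FPKM in libraries 1 to 3 of WT, against 1.40, 1.42 and 1.25 FPKM in those of BK KO. The BK KO libraries were close together and all above the WT libraries. Its mean of 0.721 ± 0.142 (SD, n = 3) for WT stood against 1.35 ± 0.0940 FPKM (SD, n = 3) for BK KO, a ratio of 1.88. On log2(FPKM + 1) this was a log2 fold change of 0.45 (standard error 0.11, limma adjusted p = 0.0187), which is under the 0.58 limit. At this level the added 1 FPKM is larger than the WT value itself, and a pseudocount of 0.1 gave 0.84 instead, which is past the threshold. Its base mean of 146 in WT mice was the lowest of the 7 genes in that group, and it was 253 in BK KO mice.

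Plxnb3 encodes a plexin that binds Sema5a and is known from oligodendrocytes. In hippocampus it gave 2.28, 3.29 and 4.02 FPKM in libraries 1 to 3 of WT, against 2.04, 2.09 and 2.52 FPKM in those of BK KO. WT library 1 lay below BK KO library 3, so the groups overlapped, and the difference was not larger than the spread between libraries. The log2 fold change was -0.37 (95% confidence interval -0.77 to 0.04, limma adjusted p = 0.0822). It was not past the threshold with any 1 library left out, where it ranged from -0.53 to -0.23. The value of -0.53 came without WT library 1, with a limma p of 0.00943 and an adjusted p of 0.0392. The groups then did not overlap. Without WT library 3 the log2 fold change was -0.23, with a limma p of 0.215.

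Robo3, a receptor that lets commissural axons cross the midline, gave 3.52, 2.10 and 2.69 FPKM in libraries 1 to 3 of WT hippocampus, against 1.76, 1.47 and 0.685 FPKM in those of BK KO. The groups did not overlap, and BK KO library 3 was the lowest by a wide margin. Robo3 fell from 2.77 ± 0.713 (SD, n = 3) to 1.31 ± 0.557 FPKM (SD, n = 3), which is 47.1% of the WT mean and the lowest share of the 7 genes. The log2 fold change was -0.72 (standard error 0.22, limma adjusted p = 0.0292). Without BK KO library 3 it was -0.51 and not past the threshold. The authors' base means were 905 in WT and 361 in BK KO hippocampus for Robo3, 697 and 429 for Efna5, and 596 and 390 for Plxnb3.

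Across the 7 genes in hippocampus, 4 were past the threshold and lower in BK KO mice (Ephb2, Ephb3, Sema7a and Robo3), where 21.9% of all 652 listed genes were lower by the same rule. None of the 7 was past the threshold in the higher direction by limma at a pseudocount of 1, where 20.7% of the listed genes were. At an unadjusted limma p under 0.05 alone, Sema3d was higher. The BK KO and WT values did not overlap in 6 of the 7 genes, against 79.9% of all listed genes, a share that the authors' selection sets. For each of these 6 genes the two-sided exact permutation test gave p = 0.1, the smallest value that 3 against 3 libraries allow, and for Plxnb3 it gave 0.2. The median log2 fold change of the 7 genes was -0.59, against -0.27 over all listed genes of hippocampus, of which 380 were lower and 272 higher. All 7 genes had a mean of at least 1 FPKM, as had only 442 of the other listed genes. The added 1 FPKM understates the change of the rest most. The threshold shares and the median over all listed genes are therefore not a like comparison for the 7. Without WT library 1, only Sema7a and Robo3 were past the threshold. When each library was divided by its median ratio over the listed genes, which moved the median of all listed genes from -0.27 to -0.15, only Sema3d was past it, at 0.61, and the groups did not overlap in 4 of the 7. The other 6 genes then still had lower values in BK KO mice, from -0.52 for Robo3 to -0.13 for Plxnb3.

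**Figure D2:**
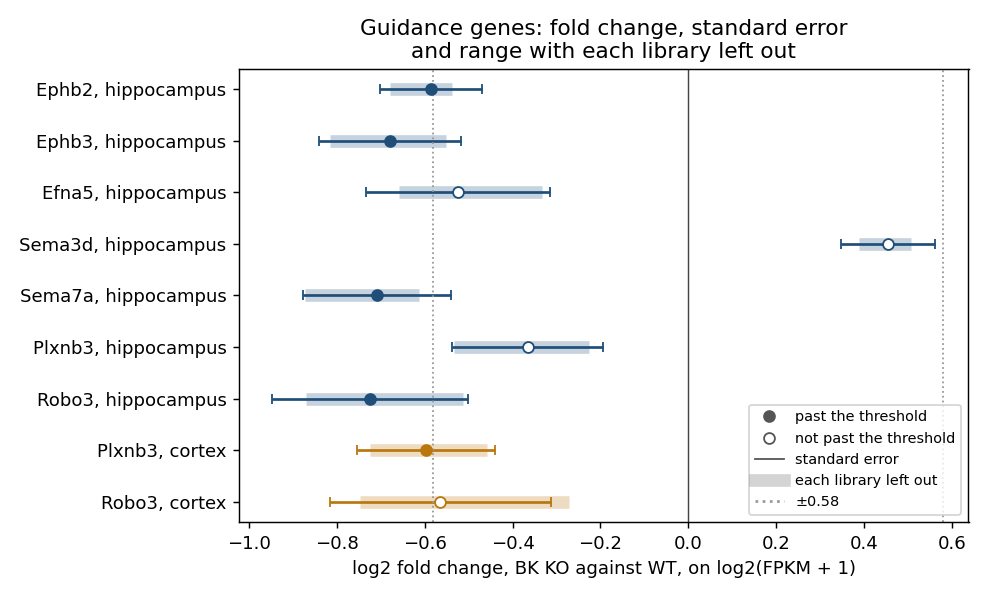
Log2 fold change of BK KO against WT on log2(FPKM + 1) for the 7 genes in hippocampus (blue) and the 2 genes listed in cortex (orange). Points with thin bars give the value and its standard error, filled where past the threshold, pale bars the range with each library left out, and dotted lines ±0.58. Sema3d is the only gene to the right of 0, and the pale bar of Robo3 in cortex reaches from -0.75 to -0.27.

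In cortex only Plxnb3 and Robo3 were listed, and values of the other 5 genes in cortex were not analysed here. Plxnb3 gave 2.73, 3.53 and 2.95 FPKM in libraries 1 to 3 of WT, against 1.21, 1.73 and 2.20 FPKM in those of BK KO. All BK KO libraries were below all WT libraries. Plxnb3 fell from 3.07 ± 0.414 (SD, n = 3) to 1.71 ± 0.493 FPKM (SD, n = 3), giving a log2 fold change of -0.60 (standard error 0.16, limma adjusted p = 0.0290 over 561 listed genes). It was not past the threshold without WT library 2, at -0.52, or without BK KO library 1, at -0.46.

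Robo3 gave 2.47, 2.86 and 2.61 FPKM in libraries 1 to 3 of WT cortex, against 2.18, 1.87 and 0.643 FPKM in those of BK KO. The groups did not overlap, but BK KO libraries 1 and 2 were near the WT range and library 3 was far below it. The log2 fold change was -0.56 (95% confidence interval -1.18 to 0.05, limma adjusted p = 0.0795) and was not past the threshold. It was -0.27 without BK KO library 3, and without BK KO library 1 it was -0.75 and past the threshold. Library 3 was thus the lowest BK KO library for Robo3 in both tissues. The labels do not say whether libraries of the same number came from the same mouse. Over the 196 genes listed in both tables, same-numbered BK KO libraries of hippocampus and cortex deviated together with correlations of 0.511, 0.655 and 0.551 across genes, which are not independent replicates, and same-numbered WT libraries with -0.000417, 0.494 and 0.0242.

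In cortex 1 of these 2 genes was past the threshold and lower, against 20.0% of the 561 listed genes, and both had groups that did not overlap, against 80.6%. With libraries divided by their median ratio neither was past it, at -0.32 for Plxnb3 and -0.31 for Robo3, and the groups of both overlapped. The levels of both genes in WT mice did not differ between the tissues beyond their spread, with 3.20 FPKM in hippocampus and 3.07 FPKM in cortex for Plxnb3 and 2.77 and 2.65 FPKM for Robo3, and the ranges overlapped. A two-sided exact permutation test of WT hippocampus against WT cortex gave p = 0.9 for Plxnb3 and p = 0.8 for Robo3, in values taken from separately deposited tables. The difference between tissues in the effect of the knockout was tested with limma as an interaction over the genes listed in both tables. Both this test and the permutation test took the libraries as unpaired. For Plxnb3 the log2 fold change in hippocampus minus that in cortex was 0.23 (95% confidence interval -0.30 to 0.77), and for Robo3 it was -0.16 (95% confidence interval -0.94 to 0.62), both with an adjusted p of 0.998. The intervals are wide, so this does not show that the tissues responded alike. With same-numbered libraries of a genotype taken as 1 mouse, the standard error was 0.19 instead of 0.24 for Plxnb3. For Robo3 it was 0.27 instead of 0.35, and the limma adjusted p was 0.997 for both.

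**Figure D3:**
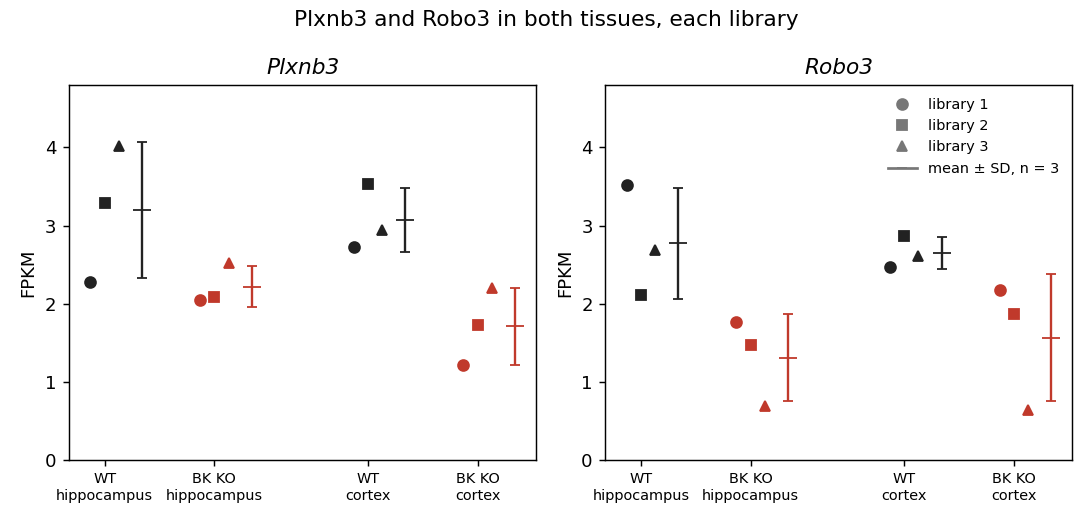
FPKM of Plxnb3 and Robo3 in all 12 libraries, by tissue and genotype, on axes that start at 0. Symbols give the library number, and bars the mean ± SD over 3 libraries. BK KO library 3 is the lowest Robo3 value in each tissue, at 0.685 and 0.643 FPKM.

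The deposited KEGG annotation places all 7 genes in axon guidance, together with 5 other listed genes of hippocampus. Of these 12 genes, 7 were past the threshold and lower and 1 past it and higher in BK KO mice, against 21.9% and 20.7% of all listed genes, and their median log2 fold change was -0.62, against -0.27 over all listed genes. The values over all listed genes again include genes with low FPKM, whose change is understated. Among the 5 others, the chemokine Cxcl12 fell from 9.88 ± 1.26 (SD, n = 3) to 5.13 ± 0.711 FPKM (SD, n = 3), while its receptor Cxcr4 had means of 0.550 ± 0.141 (SD, n = 3) for WT against 1.23 ± 0.240 FPKM (SD, n = 3) for BK KO and, at 0.52, did not pass the threshold. Ssh3, a phosphatase that activates the actin-severing protein cofilin, fell from 12.4 ± 0.922 (SD, n = 3) to 7.08 ± 0.378 FPKM (SD, n = 3). Pak7, a serine/threonine kinase, fell from 6.92 ± 1.39 (SD, n = 3) to 3.99 ± 0.736 FPKM (SD, n = 3). The gene past the threshold and higher was Camk2d, a calcium/calmodulin-dependent kinase, with a log2 fold change of 0.74. Its groups overlapped, while those of Cxcr4 did not.

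In cortex 7 listed genes carry the axon guidance annotation, all with lower means in BK KO mice, as had 395 of all 561 listed genes, and 4 were past the threshold, against 20.0% of all listed genes. Their median log2 fold change was -0.60, against -0.33 over all listed genes of cortex, which also include genes with low FPKM. Besides Plxnb3 the genes past the threshold were Cxcl12, with a log2 fold change of -0.76, Ssh3, with -0.89, and Plxna3, a co-receptor of secreted semaphorins, with -0.61. Plxna3 gave 3.53, 3.83 and 4.11 FPKM in libraries 1 to 3 of WT, against 2.15, 2.53 and 1.82 FPKM in those of BK KO, with no overlap. Trpc5, a cation channel of growth cones, and Fes, a tyrosine kinase, were at -0.42 and -0.35 and not past the threshold. Of a wider list of 77 ephrins, Eph receptors, semaphorins, plexins, neuropilins, Robo receptors, Slits, netrins and their receptors, 8 were listed in hippocampus and 3 in cortex. Besides the 7 genes and Plxna3 in cortex, the only listed gene of that list was Ntn5 in hippocampus, a netrin, which fell from 2.07 ± 0.810 (SD, n = 3) to 0.878 ± 0.166 FPKM (SD, n = 3).

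**Figure D4:**
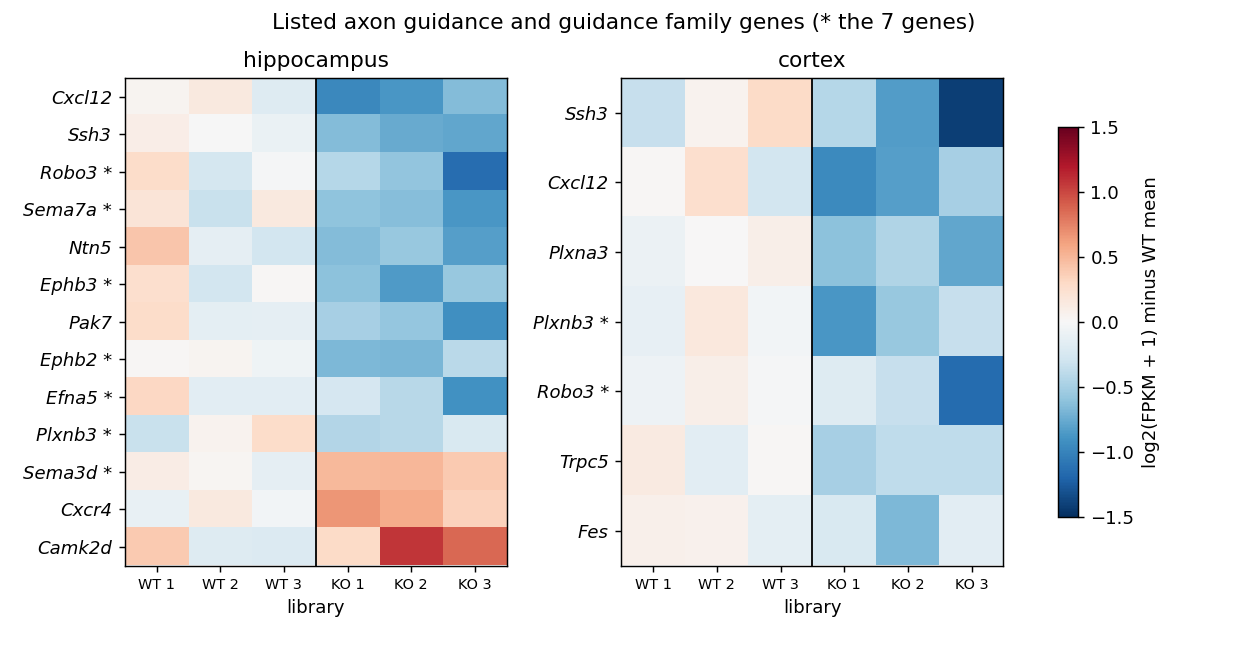
Log2(FPKM + 1) minus the WT mean of the tissue for each listed axon guidance or guidance family gene (rows, the 7 genes marked with a star) in each library (columns), blue lower and red higher. In hippocampus 10 of 13 rows have a lower BK KO mean, and in cortex all 7 do. The deepest blue of Robo3 is BK KO library 3 in both tissues.

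The genes did not vary alike from library to library. Robo3 and Efna5 had their highest values in WT library 1 and their lowest in BK KO library 3, and Ephb3 and Sema7a were also highest in WT library 1, whereas Plxnb3 had its lowest WT value in that library. For each gene the listed genes with the nearest profile were found among the 442 other hippocampus genes with a mean of at least 1 FPKM, by the root mean square difference of the mean-centred log2(FPKM + 1) values over 6 libraries. This is a description, since all listed genes had been selected for a difference between the same groups. The nearest were Smpd4 for Efna5 (0.083), Osbpl1a for Ephb3 (0.042), Ccl27a for Sema7a (0.048), Akap7 for Ephb2 (0.043), Lnx2 for Sema3d (0.075) and P2rx4 for Plxnb3 (0.082). The second nearest were Pak7, Sowahb, Galt, Atp2a3, Lin54 and Adamtsl4, in the same order, and for Robo3 the second nearest was Pamr1 (0.092). Pak7, second nearest to Efna5, is itself annotated to axon guidance. In cortex the nearest to Plxnb3 were Tmem63a (0.111) and Tmem88b (0.114), and the nearest to Robo3 were Wsb1 (0.137) and Tmem86b (0.140), among 344 genes.

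**Figure D5:**
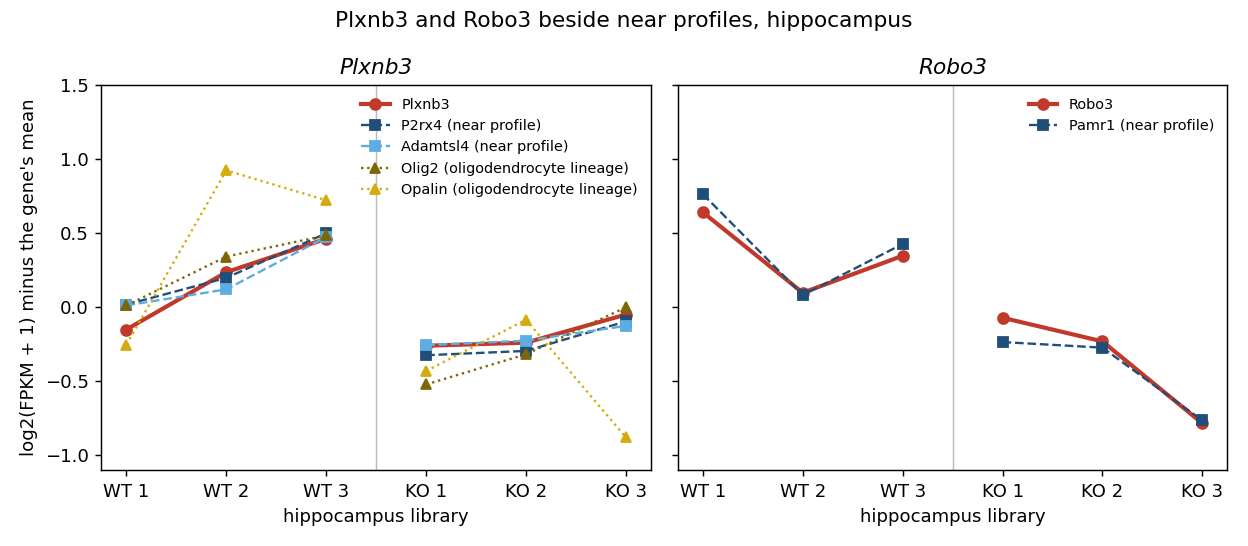
Log2(FPKM + 1) minus the mean of the gene over the 6 hippocampus libraries, for Plxnb3 (left) and Robo3 (right) in red, beside the 2 nearest profiles of Plxnb3 and the second nearest of Robo3 in blue and, for Plxnb3, 2 genes of the oligodendrocyte lineage in yellow. Lines only join the points of a gene. Plxnb3 and Olig2 have the same order of libraries within WT and within BK KO. How many other listed genes share that order was not counted. Robo3 and Pamr1 also have the same order, but Pamr1 was picked for its near profile. Opalin orders differently from Plxnb3 and is lowest in BK KO library 3, where Plxnb3 has its highest BK KO value.

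Some markers of cell types and neighbouring tissue differed between the same groups. Of 146 markers in 17 lists, 16 were listed in hippocampus and 18 in cortex, and none of the markers of neurons in general, microglia, choroid plexus or thalamus was listed in either, so the labelled tissues could not be checked beyond this. For the oligodendrocyte lineage, 1 of 10 oligodendrocyte markers and 1 of 7 precursor markers were listed in hippocampus. Olig2, a transcription factor of that lineage, gave 12.3, 15.7 and 17.5 FPKM in libraries 1 to 3 of WT hippocampus, against 8.20, 9.59 and 12.2 FPKM in those of BK KO. Opalin, a myelin protein, gave 10.04, 23.9 and 20.7 FPKM in libraries 1 to 3 of WT, against 8.76, 11.4 and 6.15 FPKM in those of BK KO. In cortex, where Opalin was the only listed marker of these lists, it ranged from 14.2 to 23.1 FPKM in WT and from 6.47 to 12.4 FPKM in BK KO mice. The part of these cells in the lower Plxnb3 was not tested.

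Wfs1 and Nov, listed markers of CA1 pyramidal cells, both rose in BK KO hippocampus. Wfs1 ranged from 29.8 to 52.6 FPKM in WT and from 75.9 to 124 FPKM in BK KO mice, and Nov from 18.3 to 33.5 FPKM and from 32.3 to 56.2 FPKM, with overlapping groups. Of 8 markers of cortical layers 3 were listed in hippocampus, with lower means of Rorb and Fezf2 and a higher mean of Bcl11b, and a summed level of 20.1 to 26.1 FPKM in WT and 20.7 to 24.6 FPKM in BK KO mice. Both listed interneuron markers of 10, Gad2 and Reln, were higher, with a summed level of 18.7 to 21.4 FPKM in WT and 39.0 to 51.1 FPKM in BK KO mice. Gh, the growth hormone gene of the pituitary, was listed at 0 in every WT library, while BK KO libraries 1 to 3 of hippocampus gave 0.120, 0.184 and 57.5 FPKM. The other listed marker of hypothalamus and pituitary, the hormone gene Trh, gave 0.345, 3.43 and 2.09 FPKM in WT and 11.6, 4.09 and 7.33 FPKM in BK KO libraries 1 to 3, with no overlap and its highest value in BK KO library 1. The high Gh value is in BK KO library 3, which was also the lowest library for Robo3, Efna5 and Sema7a. Without that library the log2 fold changes of these 3 genes were -0.51, -0.33 and -0.62. Among the BK KO libraries, library 3 was instead the highest for Ephb2, Ephb3 and Plxnb3, which were at -0.68, -0.73 and -0.43 without it. For Sema3d it was the lowest BK KO library, and the log2 fold change without it was 0.49. In cortex 11 of 13 skeletal muscle markers were listed, all with lower means in BK KO mice and 8 past the threshold, with a summed level of 27.0 to 88.1 FPKM in WT and 7.44 to 9.78 FPKM in BK KO mice. Among the other lists, single markers were listed of dentate granule cells (Pdzd2), meninges (Aldh1a2) and habenula (Gpr151), with higher means in BK KO hippocampus, and of endothelial cells (Tek), with a lower mean, while no marker of astrocytes or of CA2 and CA3 pyramidal cells was listed there. In cortex Gfap of astrocytes ranged from 23.1 to 50.4 FPKM in WT and from 50.9 to 92.2 FPKM in BK KO mice. Whether the cells behind these markers have a part in the values of the 7 genes was not tested.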

How the data were processed

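Total RNA of hippocampus and cortex was made into poly-A libraries by the authors (NEBNext Ultra, 2 μg, paired-end 150 bp). The submitters' processing notes name mm9, DESeq 1.10.1 and DESeq2, and the aligner and read counter are not given in the sources used here. The authors deposited 1 table per tissue, which keeps a gene only if its p-value before adjustment was under 0.05 and its log2 fold change passed 0.58. The deposited values per library were taken as FPKM, a unit the sources do not name. Base mean per FPKM rose with transcript length (Spearman 0.603 over 338 hippocampus genes and 0.633 over 272 cortex genes that matched a GENCODE M21 transcript, across genes). The deposited base means are a signal, group averages of size-factor-normalised read counts, printed here as the authors' means. Of 5 gene groups in hippocampus and 10 in cortex listed at 0 FPKM in all libraries, 1 and 8 had a base mean above 0, so FPKM does not give back reads and the depth of each library is unknown. The deposited fold changes, p-values and adjusted p-values were not used. All per-library columns were matched by name, and 0 were unmatched.

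Each tissue was fitted over all its listed genes with limma 3.58.1 (R 4.3.3, lmFit and eBayes without trend or block) on log2(FPKM + 1). On simulated data with known changes of 1 on the log2 scale, 87 of 90 genes were recovered in hippocampus. In cortex 91 of 96 were recovered. Calls were made on 4 of 452 unchanged genes in hippocampus and 3 of 361 in cortex. On log2(FPKM + 1) the 7 genes all changed by less than 1 in size. The recovery of changes as small as theirs was not tested. The 12 libraries are separate samples by their labels, and their number, 3 per group, limits the precision. Genes named were the 7 genes, Kcnma1, listed genes annotated to axon guidance or on a family list, the 2 nearest profiles of each gene, and markers. 1 of these genes is not reported here. The members and lists were chosen with earlier results of these data known, and the motifs after the values had been seen. Alternatives were other pseudocounts, a mean of at least 1 FPKM, libraries scaled by their median ratio, limma's trend, a replicate block, adjusted p-values and leaving out each library. Tables were handled with pandas 2.3.3 and numpy 2.4.6 in Python 3.11.15, exact tests run with scipy 1.17.1 and plots drawn with matplotlib 3.10.9. Promoter windows were those of RefSeq, GRCm38.p6.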

Additional observations from a re-analysis of the deposited data

How the results depend on the processing

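In hippocampus the count of the 7 genes past the threshold, 4, fell between 2 and 5 when single libraries were left out, lowest without WT library 1, and in cortex the count of 1 ranged from 0 to 1, with 0 without WT library 2. With a pseudocount of 0.1 or 0.01 it was 6 and 5 in hippocampus, and with the replicate block it was 4 in hippocampus and 1 in cortex. Replicate numbers did not pair WT with BK KO libraries (correlations of deviations from 0.0202 to 0.0840 for numbers 1 and 2 and -0.0685 for number 3 in hippocampus, and -0.239, 0.125 and -0.216 in cortex), and the block changed no call. Dividing each library by its median ratio over listed genes, most of which were lower in BK KO mice, moved the median log2 fold change from -0.27 to -0.15 in hippocampus and from -0.33 to -0.14 in cortex. The count was then 1 in hippocampus, Sema3d, and 0 in cortex, and the groups separated in 0 of 2 genes in cortex. No log2 fold change of the 7 genes changed sign under any of these alternatives. The difference of Robo3 between tissues turned from -0.16 to 0.051 without BK KO hippocampus library 3 and to 0.024 without BK KO cortex library 1, with -0.45 to 0.051 as the limits over all left-out libraries. Depth could not be assessed, and 3 libraries per group limit every comparison.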
